A study of Mus musculus with 5 samples.

Results

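The 9 genes Fos, Fosb, Jun, Junb, Jund, Egr1, Ier2, Atf3 and Dusp1 were taken by name from the RefSeq annotation of the mouse genome (GRCm38.p6, the mm10 coordinates), out of 21887 protein-coding genes on the assembled chromosomes. Every peak that overlapped one of these genes or the 3000 bp on either side was assigned to it. The peaks came from CUT&RUN, in which an antibody guides a nuclease that releases the DNA around its target. Cells of the mouse fetal testis, 100000 per assay, were profiled with a CREB antibody on 3 days of embryonic development, which the labels call E13.5, E16.5 and E18.5. An H3K4 antibody was used on the last of these days. The labels name no strain, genotype or treatment, and give the histone residue of the H3K4 antibody without its methylation state. Each antibody and stage is 1 library, so no value has a replicate check and no test between stages was possible. The cells were dissociated gonad without a named sort, so a site bound in few cells and a site bound weakly in many cannot be told apart. Peak lists hold no expression, and the labelled tissue was not checked against marker genes.

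Immediate early genes are transcribed within minutes of a stimulus, before new proteins are made. CREB sits at the cAMP response element (CRE) of such genes and, once phosphorylated by protein kinase A and other kinases, recruits coactivators. Fos, Fosb, Jun, Junb, Jund and Atf3 encode basic leucine zipper proteins that pair to form AP-1 and related factors, Egr1 encodes a zinc finger transcription factor, Ier2 a nuclear response protein, and Dusp1 a phosphatase that switches off MAP kinases. In the testis, luteinizing hormone and related signals act through cAMP in Leydig cells.

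CREB peaks were found at 5 of the 9 genes at the first stage (E13.5), again at 5 at the second (E16.5) and at 8 at the last (E18.5). Over all protein-coding genes the shares with a CREB peak in the same kind of window were 4.82%, 18.3% and 15.6%. H3K4 peaks were found at 9 of the 9 genes, against 63.1% of all protein-coding genes. The members are short, at most 13038 bp, and among the 9344 protein-coding genes up to that length the CREB shares were 4.33%, 14.8% and 13.0% in stage order, with 45.1% for H3K4. Fos, Jun, Ier2 and Dusp1 carried a CREB peak at all 3 stages, as did 4.66% of protein-coding genes. Junb and Egr1 carried one at E18.5 alone, as did 2.03%, and Fosb at E13.5 and E18.5 but not at E16.5, as did 0.0685% (15 genes). Jund carried one at E16.5 and E18.5, as did 8.85%, and Atf3 at no stage, as was the case for 79.5% of protein-coding genes. The CREB lists held 862, 3528 and 2957 peaks in stage order and the H3K4 list 21211, with widths of 150, 630, 160 and 210 bp that were nearly constant within a list. Read depth was not recorded in the lists, so the lack of a listed peak does not show that CREB was absent there.

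**Figure D1:**
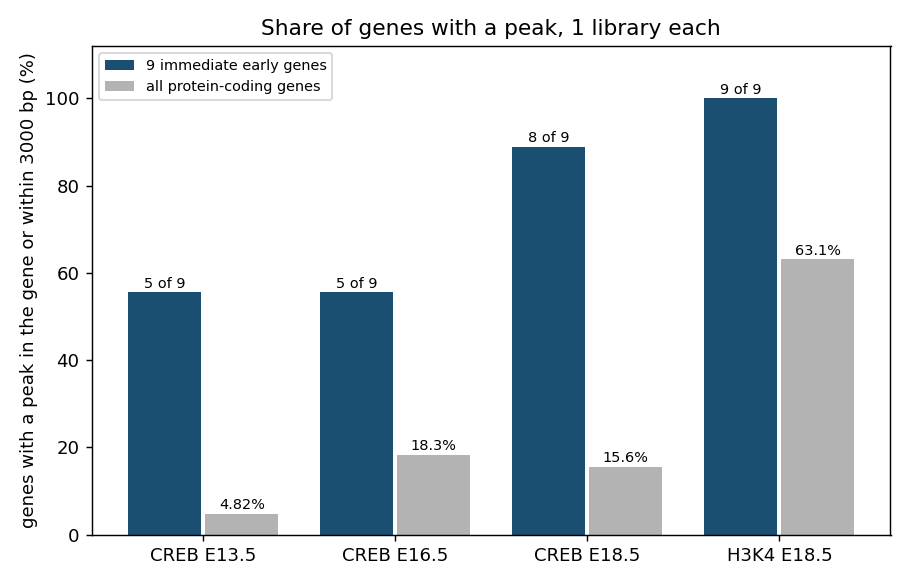
Share of genes with at least 1 peak in the gene body or within 3000 bp of it (y axis, percent), for the 9 immediate early genes (dark bars, left) and all protein-coding genes (grey bars, right), by list (x axis). There is 1 library per list and no error bar; the dark bar stands above the grey one in each list, with 8 of 9 against 15.6% for CREB at E18.5.

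In Fos, Fosb, Jun, Junb and Dusp1 a CREB peak lay just upstream of the annotated gene start, and the sequences under these peaks are shown because they tell which hold the letters of a CRE. RefSeq promoter windows, 250 bases before and 50 bases from the gene start on, were available for 7 members, and the E18.5 CREB peak overlapped the upstream part of 5 of these. For Fosb, with 3 RefSeq transcripts, the start used by the window lies inside the gene and not at its end at 19310118. The bases of GRCm38.p6 shared by peak and window are given 5′ to 3′ on the gene's strand. They are chr12:85473645-85473804 (plus strand) for Fos, chr7:19310120-19310279 (minus) for Fosb, chr4:95052333-95052472 (minus) for Jun, chr8:84978777-84978936 (minus) for Junb and chr17:26508606-26508722 (minus) for Dusp1. Capitals mark TGACG or its reverse complement CGTCA, the CRE half-site, and, in Jun, TTACCTCA, the upstream AP-1 type element of the Jun promoter.
Fos: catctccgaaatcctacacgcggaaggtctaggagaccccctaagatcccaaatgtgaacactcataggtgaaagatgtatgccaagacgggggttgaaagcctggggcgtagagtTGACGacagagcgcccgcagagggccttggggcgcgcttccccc
Fosb: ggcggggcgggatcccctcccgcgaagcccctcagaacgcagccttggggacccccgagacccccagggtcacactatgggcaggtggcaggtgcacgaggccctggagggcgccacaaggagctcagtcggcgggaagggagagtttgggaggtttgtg
Jun: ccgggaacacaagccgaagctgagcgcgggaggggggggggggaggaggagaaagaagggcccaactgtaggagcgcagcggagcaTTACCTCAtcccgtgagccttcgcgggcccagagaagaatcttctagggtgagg
Junb: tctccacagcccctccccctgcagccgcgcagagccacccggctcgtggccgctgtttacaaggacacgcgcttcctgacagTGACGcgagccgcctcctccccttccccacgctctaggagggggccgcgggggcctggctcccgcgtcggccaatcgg
Dusp1: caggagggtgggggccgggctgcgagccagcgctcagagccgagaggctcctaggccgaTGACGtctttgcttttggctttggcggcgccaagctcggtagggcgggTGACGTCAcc

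For contrast, the 250 bases before the start of Atf3, at chr1:191183334-191183583 (minus strand), had no CREB peak at any stage.
Atf3: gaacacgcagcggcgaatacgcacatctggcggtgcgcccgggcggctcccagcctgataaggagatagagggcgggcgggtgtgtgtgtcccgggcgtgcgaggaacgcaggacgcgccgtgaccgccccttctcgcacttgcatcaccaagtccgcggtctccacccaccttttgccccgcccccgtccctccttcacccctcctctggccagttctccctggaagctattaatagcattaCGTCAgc
The capitals lie 7 bp before the start and are the half-site on the opposite strand. A half-site is thus present in the promoter window of this gene without a listed peak.

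The half-site TGACG, searched on both strands, was found in the windows of 5 of the 7 members, namely Fos, Fosb, Junb, Atf3 and Dusp1. It was present in 20.8% of 32851 promoter windows of the same 300 bp length and in 62.2% of those that an E18.5 CREB peak overlapped. In Fos it began 129 and 66 bp before the start; the E13.5 and E18.5 peaks covered the match at 129 bp and not the one at 66 bp, and the 630 bp E16.5 peak covered both. In Fosb it began 60 bp before the start used by the promoter window, outside both the E13.5 and the E18.5 peak. These peaks ended 94 and 75 bp before that start. The match, at 19310101 to 19310105, lies inside the Fosb gene body, whose end is at 19310118. In Junb the half-site began 106 bp before the start, inside the E18.5 peak. Among all promoter windows with a half-site and an E18.5 CREB peak, 64.7% had a half-site wholly inside the peak.

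Dusp1 was the single member of the 7 with the full palindrome TGACGTCA, which contains the half-site on both strands. This full CRE occurred in 1.79% of all promoter windows and in 10.3% of those overlapped by an E18.5 CREB peak. It began 143 bp before the start, inside the E16.5 and E18.5 peaks and outside the E13.5 peak, and another half-site lay 191 bp before the start, inside the peaks of all 3 stages. The windows of Jun and Jund held no half-site. In Jun, TTACCTCA began 164 bp before the start, under the peaks of all 3 stages, and TGACATCA, the element nearer the start, began 45 bp before it, under the E16.5 peak alone. These Jun letters were chosen after the sequence was seen; TTACCTCA was in 0.889% of all windows and TGACATCA in 3.62%. The AP-1 site TGANTCA (7.81% of all windows), the EGR site GCGTGGGCG (0.612%) and the CArG box bound by SRF (1.63%) were in none of the 7 windows. TATAAA was in those of Fos and Junb (13.6% of all windows) and CCAAT in those of Jun, Junb and Atf3 (37.4%). TATAAA began 33 bp before the start in Fos and at base 1 of the gene in Junb. CCAAT began 65 bp before the start in Jun and 36 bp before it in Junb. In Atf3 it lay after the start, from base 6 of the gene, on the opposite strand. A match is a description of letters and not evidence of binding, and a missing match concerns these 300 bp only.

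**Figure D2:**
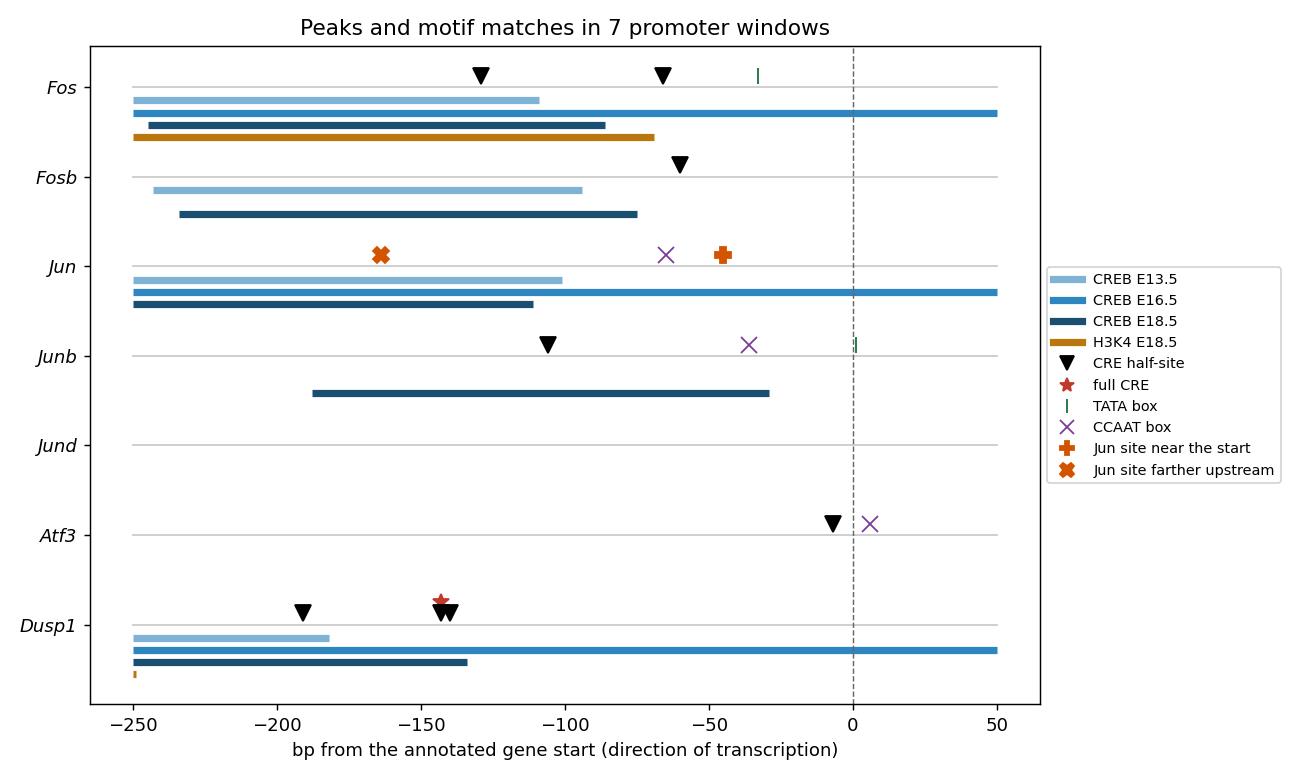
CREB and H3K4 peaks (coloured bars, clipped to the window) and motif matches (symbols, at the first base of the match on the gene's strand) in the promoter windows of 7 members; the x axis gives bp from the annotated start in the direction of transcription, and the dashed line marks the start. The E18.5 CREB peaks of Fos, Fosb, Jun, Junb and Dusp1 lie upstream of the start, the full CRE is in Dusp1, and Jund and Atf3 have no CREB bar. For Fosb the start shown is that of the promoter window, which lies inside the gene and not at its end at 19310118.

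Among the Fos family genes, Fos had a CREB peak at each stage with nearly the same centre. The peaks were at chromosome 12, 85473632 to 85473781 at E13.5, 85473424 to 85474053 at E16.5 and 85473645 to 85473804 at E18.5. Their midpoints lay 184, 152 and 166 bp before the gene start, and hence within 32 bp of each other. The H3K4 peak (85473612 to 85473821) had its midpoint 8 bp from that of the E18.5 CREB peak, which it contained. The Fos gene spans 85473890 to 85477274, and of its listed peaks the wide E16.5 one alone reached past the start into the gene.

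Fosb, whose product can replace Fos in AP-1, had a CREB peak at chromosome 7, 19310139 to 19310288 at E13.5 and 19310120 to 19310279 at E18.5. Their midpoints lay 95 and 81 bp outside the gene end at 19310118, the end at which it starts. Distances here are from that end, and the start used by the promoter window lies inside it. At E16.5 the nearest listed peak midpoint was 10036 bp outside the gene (19302696 to 19310118). The Fosb promoter peak stood in row 13 of the E13.5 list and row 45 of the E18.5 list. A further E18.5 peak, in row 1225, lay inside the gene at 19308744 to 19308903, 1295 bp from the gene end at 19310118. The H3K4 peak nearest to the promoter peak of E18.5 (19308500 to 19308709) was 1595 bp away between midpoints and 219 bp from the peak inside the gene. Another H3K4 peak lay 1721 bp beyond the far end of the gene.

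Among the Jun family genes, Jun itself had a CREB peak at every stage, at chromosome 4, 95052323 to 95052472 at E13.5, 95052041 to 95052670 at E16.5 and 95052333 to 95052492 at E18.5. The midpoints lay 175, 133 and 190 bp before the start of Jun, which spans 95049036 to 95052222. All 3 peaks also overlapped Junos, a long noncoding RNA gene next to Jun, so they cannot be given to one of these genes alone. The single H3K4 peak of the window lay inside Jun, 848 bp from the start, and 1038 bp from the E18.5 CREB midpoint.

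Junb, which encodes a Jun protein of weaker activity in many settings, had CREB peaks at E18.5 alone. One, at chromosome 8, 84978777 to 84978936 (row 1884), lay 108 bp before the start. The other, at 84976399 to 84976558 (row 2567), lay 431 bp beyond the other end of the gene and also within 3000 bp of Prdx2. An H3K4 peak stood near each, with midpoints 322 and 26 bp away, and the pair beyond the far end overlapped by 159 bp. The nearest midpoints at E13.5 and E16.5 were 314021 and 10600 bp outside Junb (84976909 to 84978748).

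Jund, the Jun gene known for steady rather than induced expression, had its CREB peaks inside the gene. They were at chromosome 8, 70698301 to 70698930 at E16.5 and 70698750 to 70698909 at E18.5, with midpoints 876 and 1090 bp after the annotated start at 70697739. RefSeq lists 2 transcripts for Jund, and a start within the gene would not be seen in the promoter windows used here. Its H3K4 peaks, centred 2398 and 3062 bp after the annotated start, were 1308 bp or more from the E18.5 CREB midpoint. At E13.5 the nearest CREB midpoint was 24233 bp outside the gene. Every listed peak of the Jund window, CREB or H3K4, also lay within 3000 bp of Iqcn, another protein-coding gene.

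Atf3, which encodes a stress-induced factor that forms dimers with Jun proteins, had no CREB peak in its window at any stage. The nearest midpoints were 144041, 41033 and 40940 bp outside the gene in stage order. Its H3K4 peaks, at chromosome 1, 191183044 to 191183253 and 191183890 to 191184099, stood on both sides of the start at 191183333, the first centred inside the gene at 191183148 and the second 661 bp before the start. Atf3 was thus the single member with H3K4 and no CREB in any list.

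Egr1 had 1 CREB peak, at E18.5, at chromosome 18, 34860887 to 34861046, with its midpoint 241 bp outside the lower end of the gene (34861207 to 34864956). It stood in row 14 of 2957, earlier than any other member peak as a share of its list. The nearest midpoints at E13.5 and E16.5 were 67029 and 67122 bp outside the gene, beyond its other end. With 3 H3K4 peaks, Egr1 had more than any other member; they were centred 783 and 192 bp outside the gene end and 512 bp inside it. The middle one overlapped the CREB peak by 136 bp, and its row, 1416 of 21211, was early too. No promoter window was at hand for Egr1 or Ier2, so their peaks are given by gene end and no sequence is shown.

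Ier2 had CREB peaks at one end of the gene at every stage, at chromosome 8, 84662814 to 84662963 at E13.5, 84662609 to 84663238 at E16.5 and 84662843 to 84663002 at E18.5. Their midpoints lay 36, 71 and 70 bp outside the gene end at 84662852. A second E18.5 peak, at 84664004 to 84664163 (row 1705), lay 1231 bp outside that end and had no counterpart at the other stages. The single H3K4 peak was farther out on the same side, 2112 bp from the gene end and 2042 bp from the E18.5 peak at the end.

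Dusp1 had CREB peaks at chromosome 17, 26508654 to 26508803 at E13.5, 26508366 to 26508995 at E16.5 and 26508606 to 26508765 at E18.5. Their midpoints lay 256, 208 and 213 bp before the start of the gene, which spans 26505591 to 26508472. H3K4 peaks stood on both sides of the start, 353 bp before and 631 bp after it, and the first overlapped the E18.5 CREB peak by 45 bp.

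**Figure D3:**
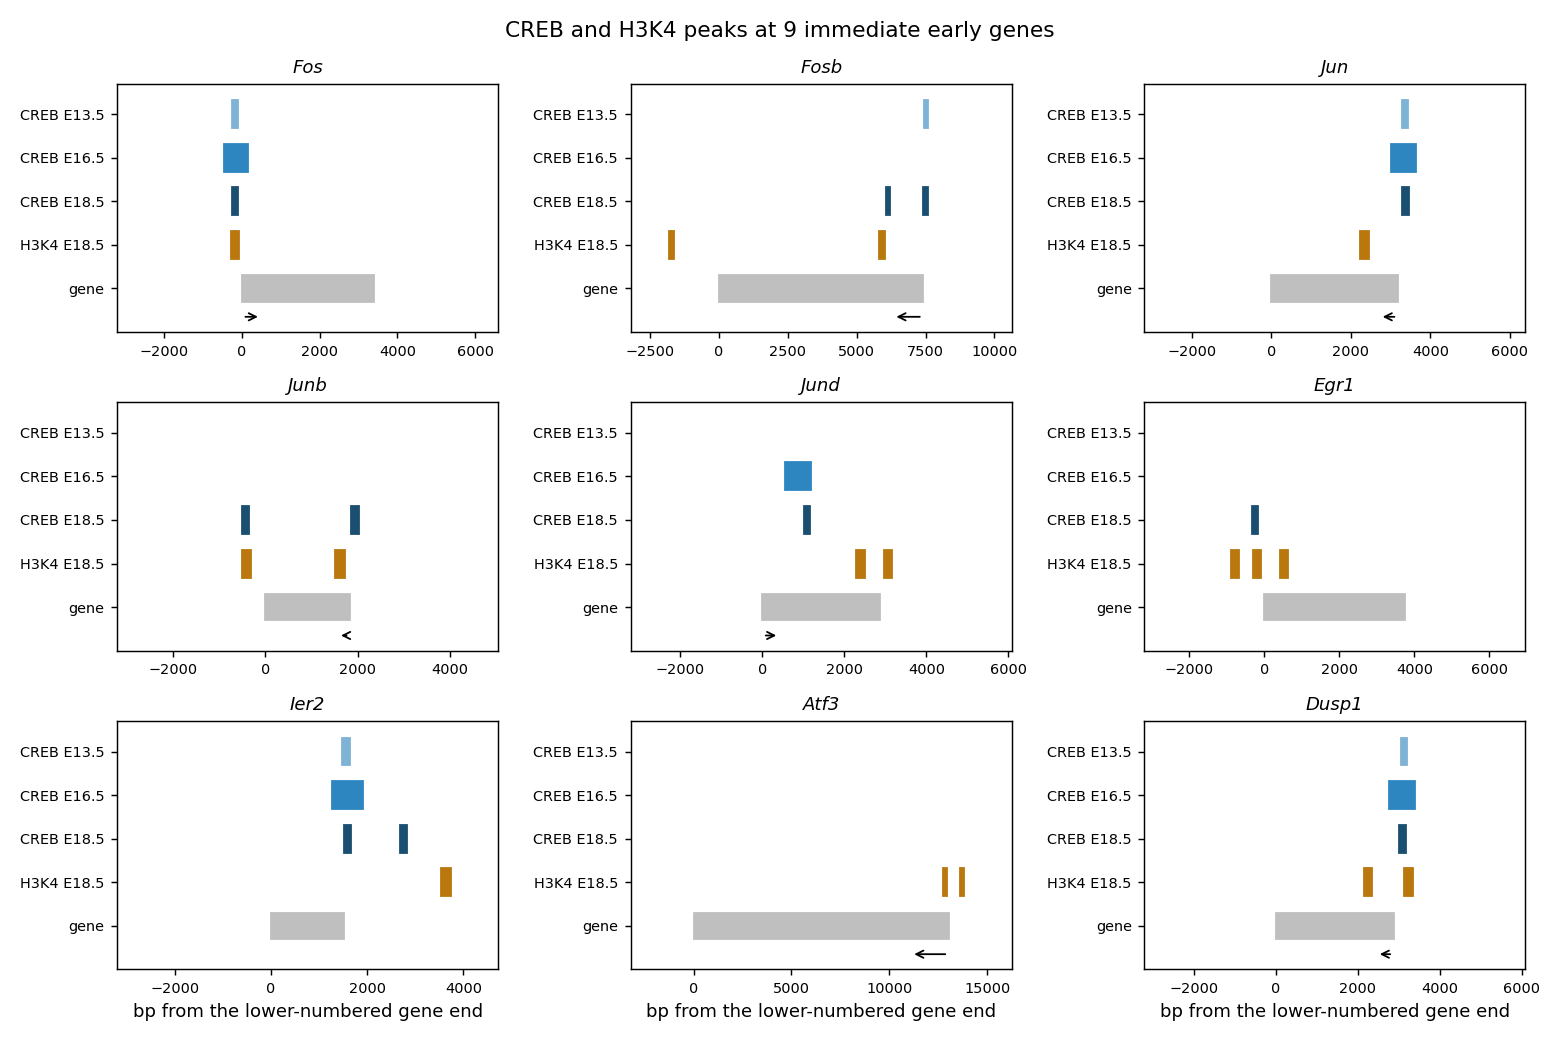
Position of every peak within 3000 bp of the 9 genes; the x axis gives bp from the lower-numbered gene end, rows are the 4 lists, grey bars the genes, and arrows the direction of transcription where the promoter table gives it. CREB bars gather at one gene end in Fos, Jun, Ier2 and Dusp1 at all 3 stages, at Egr1 and Junb the rows for E13.5 and E16.5 are empty, and Atf3 has H3K4 bars alone.

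Members differed in the stages at which a peak was listed. The gene-end distances given here are those of 1 E18.5 peak per member, the one nearest a gene end. Distances to gene ends were not computed over all CREB peaks, so closeness to a gene end cannot be called particular to the members. Further E18.5 peaks lay 431 bp outside the other end of Junb, 1231 bp outside Ier2 and 1295 bp inside Fosb. At E18.5, 7 members had a peak midpoint outside a gene end by 70 bp (Ier2), 81 bp (Fosb), 108 bp (Junb), 166 bp (Fos), 190 bp (Jun), 213 bp (Dusp1) and 241 bp (Egr1), and Jund was the exception with its peak inside the gene. In Fos, Jun, Junb and Dusp1 that end was also the start used by the promoter window. In Fosb that end was the one at which the gene starts, and the start used by the promoter window lies inside it. Of the 11 E18.5 CREB peaks at members, 5 overlapped a peak of E13.5 and 5 a peak of E16.5, where 26.1% and 81.3% of all 2947 E18.5 CREB peaks on the assembled chromosomes did. Where E18.5 and E13.5 shared a peak, the midpoints were 14 bp apart at Fosb, 15 bp at Jun, 18 bp at Fos, 34 bp at Ier2 and 43 bp at Dusp1. Between E18.5 and E16.5 they were 1 bp apart at Ier2, 5 bp at Dusp1, 14 bp at Fos, 57 bp at Jun and 214 bp at Jund.

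H3K4 peaks lay on the CREB peak at some members and over 1000 bp from it at others. Of the 11 member peaks at E18.5, 4 overlapped an H3K4 peak, at Fos, Junb, Egr1 and Dusp1, where 33.1% of all E18.5 CREB peaks did. At Junb this was the CREB peak beyond the far end of the gene, and the one before the start overlapped no H3K4 peak. An H3K4 midpoint within 1000 bp was found for 7 of the 11. Over all 2947 peaks, 88.3% had one within that distance, and the median distance to the nearest was 278 bp. The 4 member peaks with none within 1000 bp were those before the starts of Fosb (1595 bp) and Jun (1038 bp), the one inside Jund (1308 bp) and the one at the end of Ier2 (2042 bp).

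Row numbers give the order of the peaks in each file, which the sources used here do not explain, and are given as positions and not as strength. Fos stood in row 86 of 862 at E13.5, row 70 of 3528 at E16.5 and row 22 of 2957 at E18.5, or at 9.98%, 1.98% and 0.744% of the lists. Dusp1 stood in rows 522, 269 and 732 (60.6%, 7.62% and 24.8%), and Ier2 in rows 593, 275 and 800 (68.8%, 7.79% and 27.1%). Jun stood in rows 840, 732 and 815 (97.4%, 20.7% and 27.6%), close to the end of the E13.5 list. Jund stood in row 583 of 3528 at E16.5 and row 2088 at E18.5 (70.6%). Fosb stood at 1.51% of the E13.5 list and 1.52% of the E18.5 list, and Egr1 and Junb stood at 0.473% and 63.7% of the E18.5 list. Members at the front of the E18.5 list were therefore Egr1, Fos and Fosb, and the Jun family stood behind them. In the H3K4 list the earliest member peaks were those of Ier2 (row 1200), Egr1 (1416) and Fosb (2908), and that of Fos came later, in row 7597 (35.8%).

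**Figure D4:**
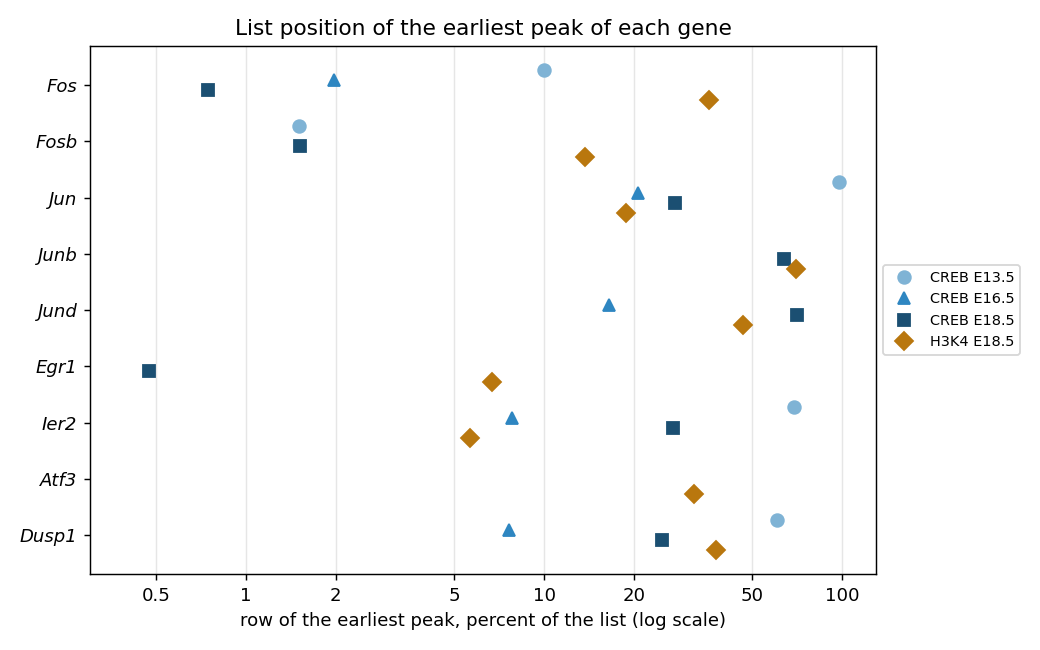
Row of the earliest peak of each member as a percentage of its list (x axis, log scale, small values at the front of the list), with a symbol for each of the 4 lists; a missing symbol means no peak within 3000 bp. Egr1, Fos and Fosb stand below 2% in the E18.5 CREB list, and Jun, Ier2 and Dusp1 stand between 60.6% and 97.4% in the E13.5 list.

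The E18.5 peaks just outside Egr1 and Fosb had no counterpart in the E16.5 list as used here. Of the first 50 rows of the E18.5 list, all on assembled chromosomes, 2 had no E16.5 midpoint within 3000 bp, and these were the peaks of Egr1 and Fosb. Among the first 100 rows there was 1 more, nearest to Cope. Of the 44 peaks on assembled chromosomes in the first 50 rows at E13.5, 2 had no E16.5 midpoint within 3000 bp, at Fosb and Cope, and of the 94 in the first 100 rows 3, with Osbpl9 as the third. Whether any E16.5 peaks were left out before the list reached this form cannot be seen from it, so the gap describes the list alone.

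Genes with list positions most like those of a member were sought among the 1008 other protein-coding genes with a peak in all 4 lists, by the mean absolute difference in row percentage over the 4 lists. For Fos these were Ubxn6 (mean difference 1.0 percentage points), and Gm6034 and H2-T22 (1.44 each, sharing their values). For Jun they included Coq10b (2.48) and Uvssa (2.92). For Ier2 they were Tmem147 and Gapdhs (2.01 each, sharing their values) and Cog5 (2.18), and for Dusp1 Sertad3 (3.11), Fh1 (3.38) and Lsm4 (3.95). With 4 points per gene and many genes compared, these are descriptions of list order.

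Genes related to the members were counted in the same way, beside the 4.82%, 18.3% and 15.6% of protein-coding genes with a CREB peak at the 3 stages and the 79.5% with none at any stage. The share with an H3K4 peak was 63.1%. Of 11 other genes of the AP-1 family, 1, 7 and 5 had a CREB peak, in stage order. Maff, a small Maf gene, had one at every stage (rows 607, 502 and 1730), and Mafk, Fosl2, Atf7 and Atf2 at the later 2 stages. Among the other Egr genes and their corepressors Nab1 and Nab2, 1, 3 and 3 of 5 had a peak. Egr2 had one at every stage (rows 321, 735 and 885), where Egr1 had one at E18.5 alone; Egr3 and Nab2 had peaks at E16.5 and E18.5, and Egr4 and Nab1 had none. The other Ier genes, Ier3, Ier5 and Ier5l, had no CREB peak in any list and an H3K4 peak each.

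Of 10 other MAP kinase phosphatase genes, 1, 3 and 3 had a CREB peak, with Dusp10 at every stage (rows 430, 529 and 294) and Dusp4 at E16.5 and E18.5, and 6 had none. All 10 had an H3K4 peak, as did 63.1% of protein-coding genes. Srf, which encodes the serum response factor that acts on Fos and Egr1, had a peak at every stage (rows 103, 253 and 73). Of the 6 genes for SRF and its partners 1, 3 and 2 had a peak, and Elk1, Elk3 and Mrtfb had none. Of 5 JNK pathway kinase genes, whose products phosphorylate Jun, 1, 4 and 3 had one, with Mapk8 at every stage (rows 375, 890 and 385). Among 32 further immediate early genes the counts were 3, 14 and 17. Per1 (rows 29, 56 and 44), Nr4a1 (610, 1059 and 593) and Sik1 (851, 1083 and 1022) had peaks at every stage, and Crem, Plk2 and Trib1 at E16.5 and E18.5. No CREB peak was listed for 14 of the 32, among them Myc, Klf4, Arc, Mcl1 and Nr4a2.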

How the data were processed

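Peak lists of 4 CUT&RUN libraries were used, 1 per antibody and stage, grouped by the titles in the labels. The deposited files give chromosome, start and end without score or read count, so depth is unknown and no peak was filtered. Trim Galore (version 0.6.10), Bowtie2 (version 2.5.2), MACS2 and the build mm10 are among the names in the submitters' processing notes; what settings and control were used, and the order of rows, was not given in the sources used here. An IgG library whose labels give conflicting stages was not used.

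Peaks were assigned to RefSeq genes of GRCm38.p6 by overlap of at least 1 bp with the gene body or 3000 bp outside it. Positions are 1-based, and midpoints are rounded down. Gene strand came from the RefSeq promoter table, in which 7 of 9 members were found. Members, lists and comparisons were chosen with earlier results of these data known. All 9 members are named with every peak; of each further list, genes with most CREB lists were named, up to 6, ties by mean row percentage; genes named as lacking a peak, and Cope and Osbpl9, were chosen after their values were seen. A gene that this rule picks for its likeness to a member is not reported here. No test was run, since each group is 1 library. Python 3.11.15, numpy 2.4.6, pandas 2.3.3 and matplotlib 3.10.9 were used. On simulated peak lists, all 200 planted genes were recovered for each list. Each planted peak was placed inside the window of its gene, so this checks the code alone.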

Additional observations from a re-analysis of the deposited data

How the results depend on the processing

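Each count was recomputed under other windows, widths and overlap rules, 40 alternatives in all, and 36 stayed within 1.5 times the value reported. Some of these could not have moved, such as the first 862 rows of the E13.5 list, which are the whole list. H3K4, already at 9 of 9, could not rise with a wider window. The rule also counts a fall from 8 members to 6 as unmoved. Without the 3000 bp outside the gene, 1 member in place of 5 had a CREB peak at E13.5 and 3 in place of 8 at E18.5, since the narrow peaks lie just outside the gene ends; at E16.5, with peaks of 630 bp, the count was 5 either way. Within the first 862 rows, the length of the E13.5 list, 0 of the 9 members had an H3K4 peak, against 9 in the whole list of 21211, and 6 had a CREB peak at E18.5. The share over all genes was not recomputed for other windows or for the first 862 rows, so these member counts cannot be set against it. With midpoints within 1000 bp in place of overlap, 7 of 11 member CREB peaks at E18.5 were near an H3K4 peak, in place of 4. A window of 10000 bp added a distant E16.5 peak at Fosb and raised that count to 6. No paired analysis was possible because each group is 1 library and no count comes from a test. Depth is unknown, so absence from a list is limited by the peak calling, which could not be varied here.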

Other observations

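Beyond the 3000 bp used above, Fos had further CREB peaks with no other protein-coding gene closer. On the side of its start, 18465, 18470 and 18451 bp from the gene, CREB peaks were listed at E13.5 (row 157), E16.5 (row 232) and E18.5 (row 137), the last at chromosome 12, 85455360 to 85455519. An H3K4 peak lay beside them at 85455554 to 85455763 (row 16805 of 21211). On the far side, CREB peaks stood 8724 bp out at E16.5 (row 1348) and 8898 bp out at E18.5 (row 1773), with an H3K4 peak 9505 bp out. The E18.5 list thus held 3 separate CREB peaks around Fos within 20000 bp.

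Fosb had CREB peaks 10036 and 10049 bp outside the end at which it starts at E16.5 (row 2565) and E18.5 (row 2553), the E18.5 peak at chromosome 7, 19320088 to 19320247, overlapping an H3K4 peak at 19319947 to 19320156. Another E16.5 peak lay 16946 bp out (row 1008). The E16.5 list therefore held peaks in the surroundings of Fosb while lacking one at its promoter. Within 20000 bp and outside the 3000 bp window, Jun, Jund, Egr1, Ier2, Atf3 and Dusp1 had no listed peak of either antibody.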
